A study of Homo sapiens with 8 samples.

Results

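RNA-seq of 8 libraries was used to ask whether PM10 acts on human intestinal epithelial cells (hIECs) in the same way with and without inflammation. The measure was the interaction of PM10 and cytokines, that is, the PM10 effect in inflamed hIECs minus the PM10 effect in normal hIECs, each a difference of mean log2(FPKM + 1). All 8 of the 8 libraries of the series entered it. Of the 60558 genes in the files, the 14206 with at least 1 FPKM in at least 2 of the 8 libraries were tested, and 12383 of these were protein-coding. A value of 0 means that PM10 and cytokines add up on the log2 scale, a positive value ("higher") that PM10 left the gene relatively higher in inflamed than in normal hIECs, and a negative value ("lower") the opposite.

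The hIECs were 2-dimensional cultures grown from H9 human embryonic stem cells, a long-established line, and each of the 4 groups held 2 libraries. Normal hIECs received neither agent. Inflamed hIECs received IFNγ and TNFα, each at 50 ng/ml, for 10 days. The PM10 groups, 1 normal and 1 inflamed, received 100 μg/ml of PM10, inhalable airborne particles, for the last 7 days. One line gave all the cells, and nothing in the labels says that the 2 libraries of a group came from separate cultures, so the p-values measure the spread between libraries. In such bulk RNA, fewer cells of a type and less RNA per cell cannot be told apart.

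IFNγ signals through JAK kinases to interferon-stimulated genes, and TNFα through NF-κB to chemokines and survival genes. PM10 carries polycyclic hydrocarbons, which bind the aryl hydrocarbon receptor (AhR) and induce cytochrome P450 enzymes, and metals and oxidants, which act on NRF2 and on metal-responsive genes. These routes meet at shared genes, for example chemokine and prostaglandin genes, where 2 agents may add up, reinforce or oppose each other.

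The sum of FPKM was 403354 to 468392 per library, and 16547 to 18926 genes were above 0. The tables hold FPKM without counts, so depth can only be judged from the lowest value above 0, which was 0.164 to 0.228 FPKM. Normal replicate 2 stood apart, with 24.2% of its FPKM from the mitochondrial genome against 15.5% to 20.4% in the other 7 libraries, and the median SD between replicates was 0.0854 (log2) in normal hIECs against 0.0489 to 0.0527 in the other groups. Of 24 epithelial markers, 6 were tested and 14 were at 0 in every library, among them VIL1, CDX2 and MUC2, while EPCAM did not pass 0.622 FPKM and CDH1 did not pass 0.221. The summed level of the 24 was 660.2 to 668 FPKM in normal hIECs, 617 to 654 with PM10, 357 to 363 in inflamed hIECs and 301 to 318 with PM10. KRT8 (185 to 383 FPKM) and KRT18 (100.1 to 266 FPKM) were abundant. All 14 mesenchymal markers were tested, and their summed level was 5473 to 6463 FPKM. The name hIECs is kept here as the label of the cultures.

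The interaction was called for 937 genes at a limma adjusted p-value under 0.05, 300 higher and 637 lower. This is the background for each gene group below, 2.11% of the genes tested called higher and 4.48% called lower. The median size of a called interaction was 0.61 (log2), and it was at least 1 for 64 higher and 61 lower genes. Leaving out any 1 of the normal PM10, inflamed and inflamed PM10 libraries, so that a group had a single library, left 263 to 330 calls, and leaving out normal replicate 1 or 2 gave 1266 or 1026. PM10 alone was called for 783 genes higher (5.51%) and 528 lower (3.72%) in normal hIECs, and for 883 higher (6.22%) and 1282 lower (9.02%) in inflamed hIECs. The calls in normal hIECs depend most on the pooled spread, with 604 when each group had its own variance weight, 194 and 221 without normal PM10 replicate 1 and 2, and 2627 without normal replicate 1.

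The inflamed setting was the one in which PM10 was called for most of these 937 genes. For 531 of them (56.7%) the PM10 effect passed the threshold in inflamed hIECs alone, with a median PM10 effect of -0.42 in inflamed and 0.04 in normal hIECs (log2). For 225 genes (24.0%) it passed in normal hIECs alone, with a median of 0.31 in normal and -0.05 in inflamed hIECs. For 80 genes it passed in both settings in opposite directions, for 38 in both in the same direction, and for 63 in neither. The interaction was higher for 145 and lower for 386 of the 531 genes, and higher for 91 and lower for 134 of the 225. A class therefore held genes of both directions, and its median does not describe every member. These classes are descriptive, because each gene had already been selected by the contrast between the same values. Without any 1 library of the 3 treated groups there were 154 to 188 genes called in inflamed hIECs alone and 56 to 93 in normal hIECs alone. Without normal replicate 1 there were 535 (42.3%) and 438 (34.6%), and without normal replicate 2 there were 632 (61.6%) and 188 (18.3%). PM10 was also called in both settings and in the same direction for 315 genes whose interaction was not called.

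**Figure D1:**
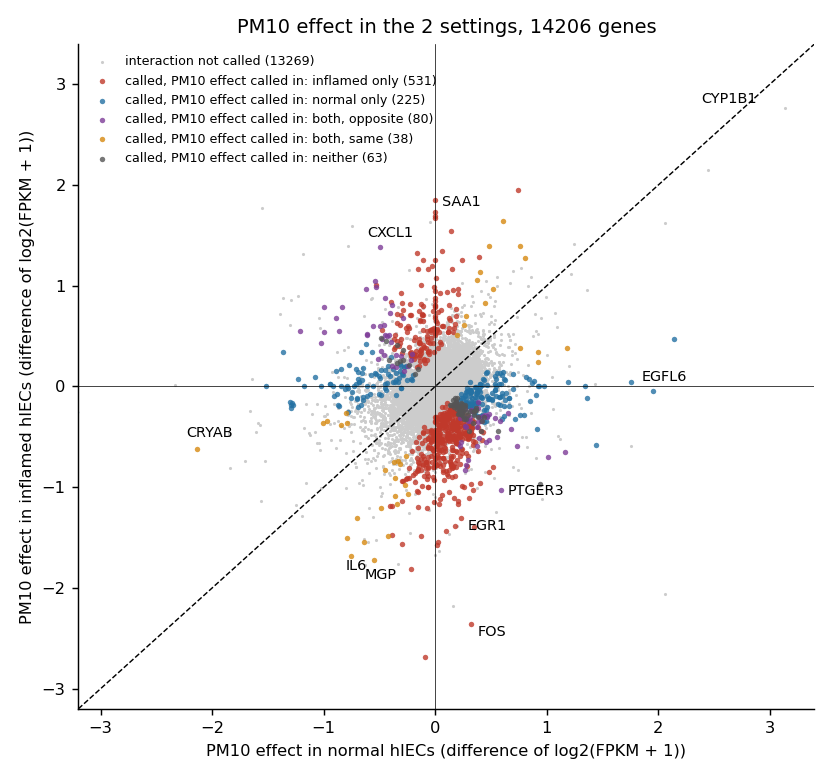
PM10 effect of each of the 14206 tested genes in normal hIECs (x axis) and inflamed hIECs (y axis), as differences of mean log2(FPKM + 1) with 2 libraries per group. Genes on the dashed line respond alike in both settings. Coloured points are the 937 genes called for the interaction, by the setting in which their PM10 effect was called, and the 531 genes called in inflamed hIECs alone spread along the vertical axis, with FOS at -2.35 and SAA1 at 1.73, while EGFL6, called in normal hIECs alone, sits at 1.95 on the horizontal axis.

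The choice of scale moved the split between higher and lower genes, while the class called in inflamed hIECs alone was the largest under each of the 4 scalings. After median centring, which sets the median log2 level of each library to the same value, 453 genes were called higher (3.19%) and 539 lower (3.79%). The share of higher calls was then 45.7%, against 32.0% as deposited and 46.6% after quantile normalization. The median interaction over all genes was -0.06 as deposited and -0.01 after centring, so small interactions are read relative to that shift. PM10 alone was then called for 563 genes higher (3.96%) and 749 lower (5.27%) in normal hIECs, and for 1101 higher (7.75%) and 1402 lower (9.87%) in inflamed hIECs. Under centring 56.8% of the calls were called in inflamed hIECs alone and 24.0% in normal hIECs alone. The balance of directions changed in the class called in normal hIECs alone. That class held 136 higher and 102 lower genes under centring against 91 and 134 as deposited. Its median PM10 effect in normal hIECs follows the more frequent direction. This median was -0.31 under centring and -0.28 after quantile normalization against 0.31 as deposited. On the linear FPKM scale, where additivity means that FPKM differences add, 924 of the 937 genes had an interaction of the same sign and 13 of the opposite sign.

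**Figure D2:**
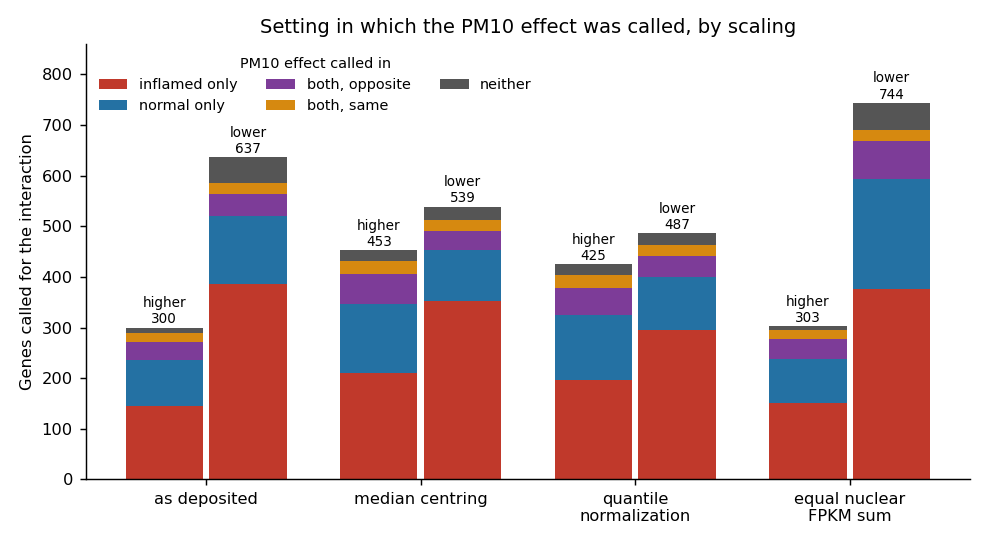
Number of genes called for the interaction (y axis) under 4 scalings of the same 8 libraries, split into higher and lower, with colours for the setting in which the PM10 effect was called. The lower bar exceeds the higher one most under the deposited scaling (637 against 300) and an equal nuclear FPKM sum (744 against 303), and PM10 effects called in inflamed hIECs alone (red) make up the largest block of every bar.

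Interaction calls were spread unevenly over the gene groups. Many of the 46 functional lists had interaction calls in 1 direction only. Chemokines, mitosis and contractile genes were called only higher (6 of 13, 9 of 32 and 7 of 27 members tested). So were potassium channels (4 of 22), metallothioneins (2 of 4), complement (2 of 15) and heat shock genes (2 of 15). Prostaglandin and HOX genes were called only lower (5 of 13 and 7 of 32), as were lysosome (4 of 33), NRF2 (3 of 28) and apoptosis genes (3 of 27). Of 25 immediate early genes 8 were called lower and 1 higher, and 16 were not called. The chemokine count is read with care. CXCL5, CXCL6, CXCL8 and CCL5 stood at a mean of under 0.5 FPKM in both groups without cytokines, so that their interaction is nearly the PM10 effect in inflamed hIECs. CXCL1, also among the 6, did not pass 0.5 FPKM without cytokines either, and its fall with PM10 there adds to its interaction. Collagens, matrix glycoproteins and matrix proteases had calls in both directions. Ribosomal, respiratory chain and proteasome genes were near or below the background, with 1 of 79, 1 of 77 and 0 of 34 members called, all lower.

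**Figure D3:**
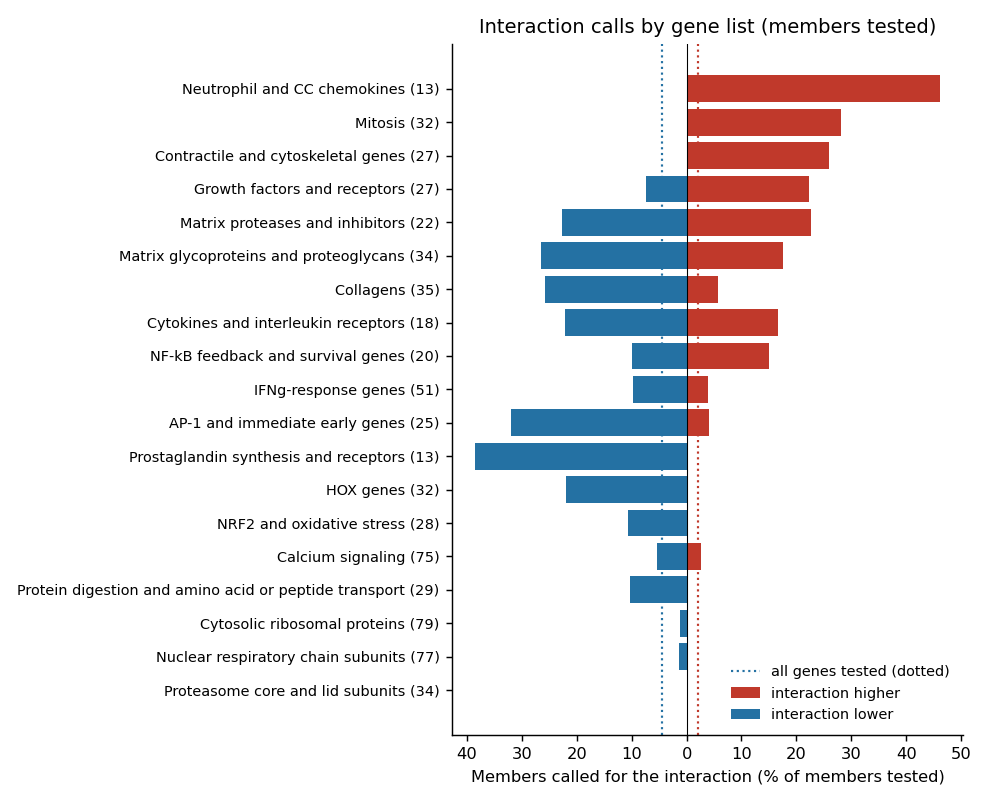
Percentage of the tested members of 19 gene lists (y axis, number tested in parentheses) called for the interaction, higher to the right in red and lower to the left in blue. Dotted lines give the 2.11% and 4.48% over all genes. Among the 19 lists shown, chemokines reach the furthest to the right, with 6 of 13 members called, and prostaglandin genes the furthest to the left, with 5 of 13.

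Neutrophil-attracting chemokines were raised by PM10 in inflamed hIECs and lay near the lowest values of the tables without cytokines. CXCL1, CXCL5, CXCL6 and CXCL8 are ligands of CXCR2, a receptor that guides neutrophils, and their genes lie together on chromosome 4. The 250 bases before the RefSeq start (GRCh38.p14) of these 4 genes are shown because the genes moved together. Capitals mark the NF-κB motif in CXCL1, CXCL6 and CXCL5, and in CXCL8 the AP-1 motif TGANTCA, since its window held no stretch of the NF-κB form searched. That form has to start with GGG, and other forms of the NF-κB site were not searched. Both strands were searched, and overlapping matches on the 2 strands were merged.
CXCL1, chr4:73869143-73869392, + strand: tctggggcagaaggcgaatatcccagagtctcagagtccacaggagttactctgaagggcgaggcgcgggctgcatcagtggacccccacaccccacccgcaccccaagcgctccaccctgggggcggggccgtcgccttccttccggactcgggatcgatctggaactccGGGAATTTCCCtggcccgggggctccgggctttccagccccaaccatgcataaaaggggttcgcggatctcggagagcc
CXCL6, chr4:73836428-73836677, + strand: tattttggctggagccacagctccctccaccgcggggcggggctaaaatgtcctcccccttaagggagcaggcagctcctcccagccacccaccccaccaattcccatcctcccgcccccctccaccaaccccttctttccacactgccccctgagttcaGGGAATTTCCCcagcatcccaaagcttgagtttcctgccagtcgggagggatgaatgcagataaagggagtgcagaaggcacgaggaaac
CXCL5, chr4:73998678-73998927, - strand: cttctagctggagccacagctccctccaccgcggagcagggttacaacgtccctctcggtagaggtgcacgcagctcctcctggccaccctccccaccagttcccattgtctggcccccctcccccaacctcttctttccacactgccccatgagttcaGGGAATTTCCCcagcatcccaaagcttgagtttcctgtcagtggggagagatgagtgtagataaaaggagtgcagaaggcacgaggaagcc
CXCL8, chr4:73740319-73740568, + strand: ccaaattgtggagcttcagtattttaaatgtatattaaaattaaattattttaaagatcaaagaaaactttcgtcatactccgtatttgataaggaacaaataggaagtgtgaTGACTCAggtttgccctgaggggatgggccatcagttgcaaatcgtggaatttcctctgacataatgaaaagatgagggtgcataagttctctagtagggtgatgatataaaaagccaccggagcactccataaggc
The same 11 bases, GGGAATTTCCC, stood 79 bases before the start in CXCL1, 90 in CXCL6 and 91 in CXCL5. The NF-κB motif was held by 9.96% and TGANTCA by 6.57% of all 35116 RefSeq promoters in windows of the same length. A match describes the letters only.

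CXCL1 was at 0.425 and 0.391 FPKM in the normal libraries, at 0 in both with PM10, at 5.56 and 5.57 in the inflamed libraries and at 16.4 and 15.8 in those with PM10. Its interaction was 1.87 ± 0.10 (SE, limma adjusted p = 0.000434), and PM10 raised it 2.89-fold in inflamed hIECs. CXCL8 was listed at 0 in 3 of the 4 libraries without cytokines and at 0.213 in the other, at 1.04 and 0.834 FPKM in inflamed hIECs and at 4.83 and 4.46 with PM10. Its interaction was 1.41 ± 0.17 (SE, limma adjusted p = 0.00619). The inflamed libraries with PM10 lay above every other library for both genes, and without cytokines neither passed 0.5 FPKM, so the called fall of CXCL1 with PM10 in normal hIECs (-0.49, log2) rests on values near the lowest that the tables hold.

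CXCL5 was at 0 in the 4 libraries without cytokines and rose with PM10 from 4.17 and 4.39 to 11.9 and 11.3 FPKM in inflamed hIECs, with an interaction of 1.26 ± 0.11 (SE, limma adjusted p = 0.00173). CXCL6 stood between 0.254 and 0.386 FPKM without cytokines and rose with PM10 from 7.22 and 7.03 to 17.1 and 17.3, with an interaction of 1.23 ± 0.10 (SE, limma adjusted p = 0.00171). CCL5, a T cell attractant, was at 0 without cytokines and rose from 122 and 112 to 211 and 211 FPKM, with an interaction of 0.85 ± 0.08 (SE, limma adjusted p = 0.00235). These genes were at or near 0 without cytokines, and 51 of the 937 called genes, 44 of them higher, were under 1 FPKM in all 4 libraries without cytokines.

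The interferon-induced chemokines, which attract T cells through CXCR3, were not all alike. CXCL9 rose with PM10 from 221 and 222 to 373 and 374 FPKM in inflamed hIECs, with an interaction of 0.89 ± 0.12 (SE, limma adjusted p = 0.00969). CXCL10 was at 1314 and 1283 FPKM in inflamed hIECs and 1254 and 1265 with PM10, and its interaction of 0.11 was not called (limma adjusted p = 0.655). CXCL11 had an interaction of 0.28 that was not called either (limma adjusted p = 0.0763), although 3 of 20 alternatives called it, median centring among them. CCL5, CXCL10 and CXCL11 were chosen after their values were seen. Over the whole IFNγ-response list 2 of 51 members were called higher and 5 lower, with a median interaction of -0.20 against -0.06 over all genes.

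The calls of CXCL1, CXCL6 and CCL5 held in all 20 alternative fits and that of CXCL5 in all 19 that tested it, while CXCL8 and CXCL9 lost theirs with a pseudocount of 0.1 (limma adjusted p = 0.298 and 0.194). The chemokine list, which does not hold CXCL9 to CXCL11, had 4 to 8 calls across the alternatives, with 4 under a pseudocount of 0.1 and with a minimum mean of 5 FPKM, and none lower.

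SAA1 and SAA2 rose with PM10 in inflamed hIECs. They encode serum amyloid A proteins, are near-identical and may share reads. SAA1 was at 4.86 and 6.59 FPKM in inflamed hIECs and at 21.3 and 21 with PM10, and SAA2 went from 1.45 and 1.77 to 6.92 and 7.75. Their interactions were 1.73 ± 0.17 (SE, limma adjusted p = 0.00239) and 1.67 ± 0.14 (SE, limma adjusted p = 0.00171). Both were at 0 in all 4 libraries without cytokines.

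A further group was lowered by PM10 in normal hIECs and raised by it in inflamed hIECs. ANKRD1, a cofactor induced by mechanical stress, went from 234 and 193 to 120.1 and 117 FPKM without cytokines and from 316 and 319 to 549 and 550.4 with them, an interaction of 1.63 ± 0.12 (SE, limma adjusted p = 0.00133). Both libraries with PM10 lay below the untreated ones in normal hIECs and above those without PM10 in inflamed hIECs. The interaction was made of PM10 effects of -0.84 in normal and 0.79 in inflamed hIECs (log2).

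The same crossing was seen at the cell surface. NT5E, the ecto-enzyme CD73 that makes adenosine, went from 13.6 and 11.1 to 8.1 and 7.22 FPKM in normal hIECs and from 26.1 and 26.3 to 51.6 and 53.2 in inflamed hIECs, an interaction of 1.59 ± 0.13 (SE, limma adjusted p = 0.00171). ITGA1, an integrin subunit that binds collagen, went from 10.9 and 8.87 to 4.45 and 4.42 and from 8.38 and 7.96 to 12.8 and 11.9 FPKM, an interaction of 1.54 ± 0.13 (SE, limma adjusted p = 0.00173). The adhesion genes AMIGO2 and MCAM (listed as AP002956.1 in the files, under the identifier of MCAM) had interactions of 1.57 and 1.78 (limma adjusted p = 0.00207 and 0.00171). PM10 effects in these 4 genes were called in both settings and pointed in opposite directions.

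PM10 was also called in opposite directions for INHBA, TNFRSF11B, HBEGF, IL11 and IL7R, while over the lists this held for 2 of 27 growth factor and 2 of 18 cytokine genes. INHBA, a subunit of activin A, went from 21.7 and 17.2 to 13 and 13.1 FPKM in normal and from 49.4 and 51.3 to 101 and 101 in inflamed hIECs, an interaction of 1.52 ± 0.13 (SE, limma adjusted p = 0.00178). TNFRSF11B, the decoy receptor osteoprotegerin, went from 3.1 and 2.26 to 1.73 and 1.31 and from 19.5 and 18.3 to 40.1 and 40.01 FPKM, an interaction of 1.59 ± 0.17 (SE, limma adjusted p = 0.00386). HBEGF, a ligand of the EGF receptor, and the cytokine IL11 had interactions of 1.14 and 1.33 (limma adjusted p = 0.00216 and 0.00246). The receptor gene IL7R had an interaction of 1.13 (limma adjusted p = 0.00171).

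Other genes with a positive interaction were called for PM10 in 1 setting only, or in both in the same direction. IGFBP7, a matrix protein that binds IGF, fell with PM10 from 580.02 and 486 to 231 and 219 FPKM in normal hIECs and stood at 1019 and 1017 and 1085 and 1055 in inflamed hIECs, an interaction of 1.31 ± 0.11 (SE, limma adjusted p = 0.00178). IGFBP3, its relative, was not called in normal hIECs (445 and 358 against 343 and 338 FPKM) and rose from 2116 and 2111 to 3717 and 3757 in inflamed hIECs, an interaction of 1.05 ± 0.13 (SE, limma adjusted p = 0.00619). CRYAB, a small heat shock protein, fell in both settings, by 2.13 in normal and by 0.62 in inflamed hIECs (log2), where it ended at 0. Its fall in inflamed hIECs could therefore not have been larger. Of the 937 called genes 44, 29 of them lower, were under 1 FPKM in all 4 libraries with cytokines. In all, 6 of 27 growth factor genes were called higher and 2 lower. The interactions of this and the 4 preceding paragraphs held in every alternative that tested them, except CRYAB with a pseudocount of 0.1 (limma adjusted p = 0.249). The falls in normal hIECs rest on the spread pooled over all groups. With the normal and normal PM10 libraries alone, those of ANKRD1, NT5E and ITGA1 were not called (limma adjusted p = 0.0921, 0.132 and 0.0914).

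**Figure D4:**
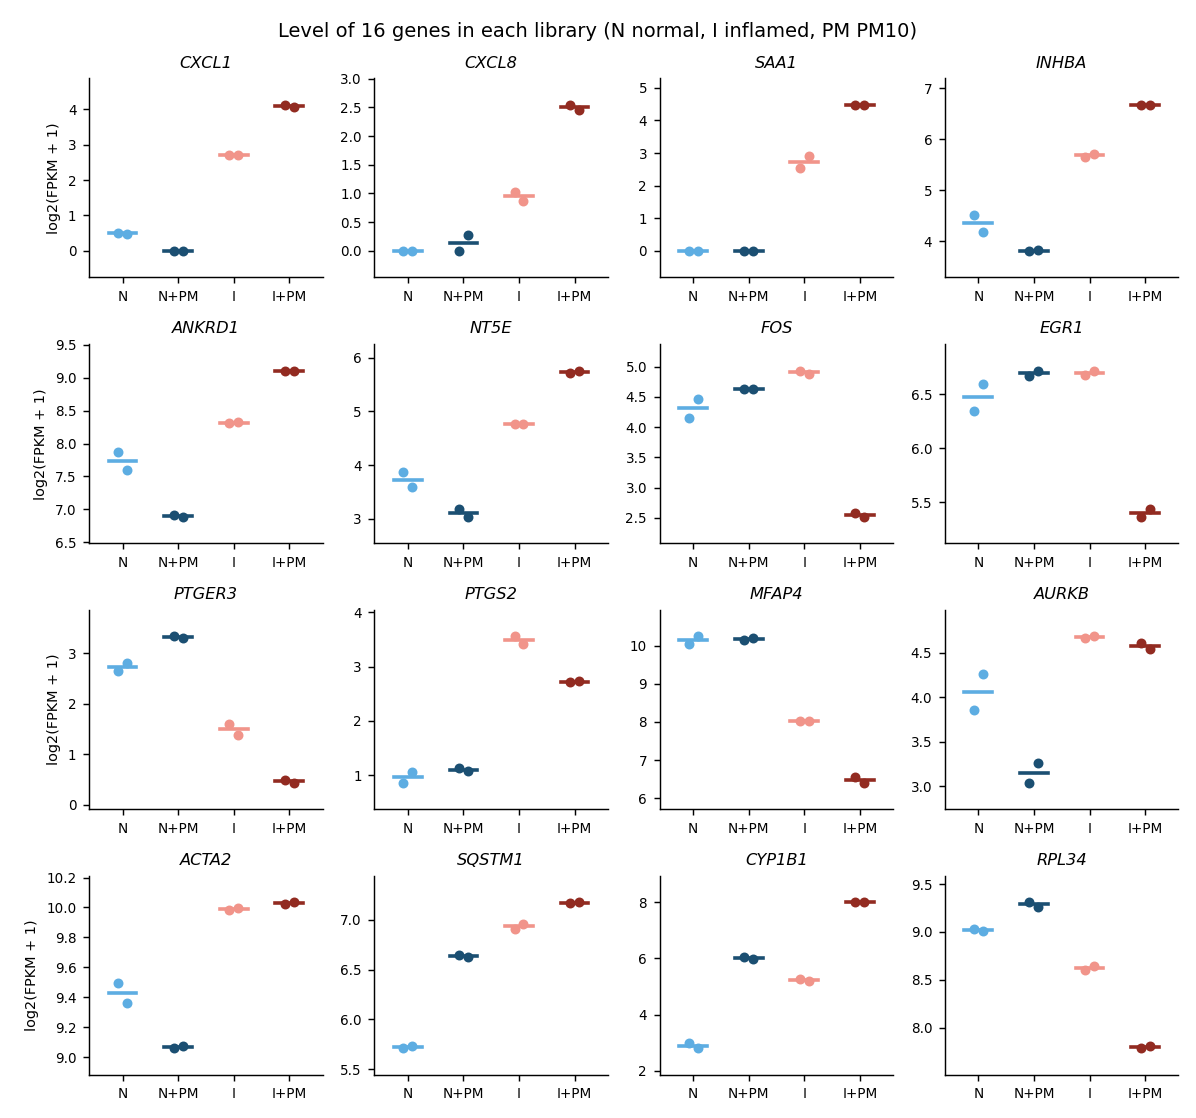
Level of 16 genes as log2(FPKM + 1) (y axis, scaled per gene) in each of the 8 libraries. N is normal, I is inflamed, PM is PM10, points are libraries and lines are means of 2. INHBA, ANKRD1 and NT5E fall with PM10 on the left of each panel and rise on the right, while FOS and EGR1 are called on the right only.

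Immediate early genes, whose products are transcription factors and phosphatases that growth signals and stress induce within minutes, were called lower with PM10 for 9 of 25 and higher for 6 in inflamed hIECs, against 2 lower and 6 higher in normal hIECs. FOS, a subunit of AP-1, had the largest negative interaction of the genes named here. It was at 16.8 and 21.2 FPKM in normal hIECs, 23.9 and 23.8 with PM10, 29.6 and 28.4 in inflamed hIECs and 5.0 and 4.73 with PM10. Its interaction was -2.68 ± 0.14 (SE, limma adjusted p = 0.000434), and the PM10 effect was 0.32 in normal hIECs (limma adjusted p = 0.0806) and -2.35 in inflamed hIECs (9e-05). The inflamed libraries with PM10 lay below all 6 others.

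EGR1, a zinc finger factor, was at 80.3 and 95.8 FPKM in normal hIECs, 101 and 104 with PM10, 101 and 104 in inflamed hIECs and 40.2 and 42.1 with PM10, an interaction of -1.53 ± 0.11 (SE, limma adjusted p = 0.0015). DUSP2, a phosphatase of MAP kinases, went from 9.39 and 11.4 to 13.2 and 12.8 and from 3.15 and 3.01 to 0.777 and 1.03 FPKM, an interaction of -1.41 ± 0.15 (SE, limma adjusted p = 0.003). The promoter of EGR1 is shown because immediate early genes are known for CArG boxes, the binding sites of serum response factor. Capitals mark 2 of them, starting 105 and 83 bases before the RefSeq start, a motif held by 1.16% of all promoters in this window.
EGR1, chr5:138465229-138465478, + strand: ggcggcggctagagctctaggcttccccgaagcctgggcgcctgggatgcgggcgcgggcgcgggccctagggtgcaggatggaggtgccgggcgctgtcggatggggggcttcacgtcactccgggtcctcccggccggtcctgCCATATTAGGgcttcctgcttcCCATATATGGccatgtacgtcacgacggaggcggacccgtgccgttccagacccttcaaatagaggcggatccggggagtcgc

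FOSL1, also an AP-1 subunit, went the other way. It stood at 1.14 and 1.64 FPKM in normal hIECs, 2.15 and 1.51 with PM10, 6.75 and 8.03 in inflamed hIECs and 19 and 19.1 with PM10, an interaction of 1.02 ± 0.20 (SE, limma adjusted p = 0.0304). FOS, EGR1 and DUSP2 kept their calls in all 20 alternatives and FOSL1 in 11, with adjusted p-values of 0.0188 to 0.103. FOSL1 lost its call with pseudocounts of 0.1 and 0.5, without the low-value filter, without normal replicate 2, without normal PM10 replicate 2 and without each of the 4 inflamed libraries. Over the 25 immediate early genes the median interaction was -0.07, close to the -0.06 over all genes, and -0.02 under median centring. The median PM10 effect was 0.17 in normal and -0.14 in inflamed hIECs, and the number called lower was 5 to 11 across the alternatives, 5 of them without inflamed replicate 1.

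The interaction was called for 5 of 13 prostaglandin genes, all lower, with synthesis and receptor genes among them. PTGS2 encodes cyclooxygenase 2, which starts prostaglandin synthesis. It was at 0.816 and 1.07 FPKM in normal hIECs, 1.19 and 1.1 with PM10, 10.8 and 9.74 in inflamed hIECs and 5.53 and 5.65 with PM10, an interaction of -0.91 ± 0.13 (SE, limma adjusted p = 0.00956). PTGES, the synthase of prostaglandin E2, went from 6.73 and 8.0 to 6.63 and 6.24 and from 28 and 29.6 to 15.8 and 15.6 FPKM, an interaction of -0.67 ± 0.11 (SE, limma adjusted p = 0.0197). Both had been raised by cytokines, and PM10 lowered them from that level.

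Receptor genes were also among the calls. PTGER3, a receptor of prostaglandin E2, was at 5.29 and 5.99 FPKM in normal hIECs, 9.07 and 8.9 with PM10, 2.04 and 1.61 in inflamed hIECs and 0.400 and 0.355 with PM10, an interaction of -1.62 ± 0.14 (SE, limma adjusted p = 0.00171). PTGIR, the prostacyclin receptor, went from 11.6 and 13 to 12.9 and 14.1 and from 9.07 and 9.71 to 5.37 and 4.97 FPKM, an interaction of -0.88 ± 0.11 (SE, limma adjusted p = 0.00748). With PTGIS, the prostacyclin synthase, 5 of 13 members were called lower and none higher, and PM10 was called lower for 5 in inflamed and for none in normal hIECs. PTGER3, PTGS2 and PTGIR held their calls in every alternative that tested them, while PTGES lost its call without either normal PM10 library and without each inflamed library (limma adjusted p up to 0.0822). In each of those 6 fits 3 members were called.

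Other targets of NF-κB and TNFα split. IL6, a cytokine, fell with PM10 from 26.4 and 21.3 to 6.45 and 6.51 FPKM in inflamed hIECs, against 0.796 and 1.11 and 0.444 and 0.219 in normal hIECs, an interaction of -1.17 ± 0.19 (SE, limma adjusted p = 0.0158). PM10 was called lower for it in both settings. The adhesion receptor VCAM1 went from 74 and 72.4 to 41.5 and 43.2 in inflamed hIECs, against 33.6 and 27.3 and 28.2 and 27.9 in normal hIECs, an interaction of -0.67 ± 0.12 (SE, limma adjusted p = 0.0268). NFKBIZ, a nuclear IκB protein, had an interaction of -0.64 (limma adjusted p = 0.0104). In the opposite direction stood BIRC3, an inhibitor of apoptosis, with 0.51 (0.0399), and CYLD, a deubiquitinase that restrains NF-κB, with 0.95 (0.0412). Over the list 3 of 20 members were called higher and 2 lower. IL6 lost its call with pseudocounts of 0.1 and 0.5, without normal PM10 replicate 1, without inflamed replicate 1 and without either inflamed PM10 library (limma adjusted p up to 0.439). VCAM1, NFKBIZ, BIRC3 and CYLD kept theirs in 14 of 20, 17 of 20, 8 of 19 and 9 of 20 alternatives, and all 4 lost it without normal PM10 replicate 1, inflamed replicate 1 and inflamed PM10 replicate 1.

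Several matrix genes that cytokines had lowered were lowered further by PM10 in inflamed hIECs and were not called for PM10 in normal hIECs. MFAP4, a microfibril protein, was at 1064 and 1212 FPKM in normal hIECs, 1143 and 1173 with PM10, 257 and 259.9 in inflamed hIECs and 92.5 and 83.9 with PM10, an interaction of -1.57 ± 0.10 (SE, limma adjusted p = 0.0011). OGN, a small leucine-rich proteoglycan, went from 120.05 and 103 to 114 and 111 and from 4.42 and 4.61 to 1.01 and 0.712 FPKM, an interaction of -1.59 ± 0.14 (SE, limma adjusted p = 0.00178). In both genes the normal libraries with and without PM10 overlapped, and the inflamed ones did not.

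MGP, an inhibitor of calcification, shows how the scale matters. It was at 451 and 452 FPKM in normal hIECs, 395 and 382 with PM10, 22.6 and 20.5 in inflamed hIECs and 5.36 and 5.44 with PM10. On the log2 scale its interaction was -1.60 ± 0.08 (SE, limma adjusted p = 0.000434), whereas on the linear scale PM10 removed more FPKM in normal hIECs and the difference of differences was 46.9 FPKM. It is 1 of the 13 genes whose sign depends on the scale. COL13A1, a transmembrane collagen, also changes sign, with -0.77 on the log2 scale (limma adjusted p = 0.00949) and 0.67 FPKM on the linear scale, and its call was lost without normal PM10 replicate 1 (0.0509).

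Among the 35 collagens 9 were called lower and 2 higher. The fibrillar COL3A1 stood at 1034 and 1014 FPKM in normal hIECs and 1035 and 1032 with PM10, and fell from 706 and 709 to 475 and 466 with PM10 in inflamed hIECs, an interaction of -0.60 ± 0.06 (SE, limma adjusted p = 0.00219). The pair that was higher, COL4A1 and COL4A2, encodes the chains of basement membrane collagen and is transcribed from neighbouring starts. COL4A1 went from 134 and 114 to 79.6 and 76.8 and from 313 and 321 to 362 and 357 FPKM, an interaction of 0.83 ± 0.11 (SE, limma adjusted p = 0.007). COL4A2 went from 136 and 136 to 93.4 and 96.5 and from 336 and 348 to 416 and 408, an interaction of 0.78 ± 0.06 (SE, limma adjusted p = 0.00166). Under median centring 6 collagens were called higher and 7 lower. Leaving out normal PM10 replicate 1 left 3 called lower and leaving out any 1 of normal PM10 replicate 2 and the 4 inflamed libraries left 4.

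A few matrix genes were called for PM10 in normal hIECs only. EGFL6, a secreted protein of the matrix, rose from 0.820 and 0.878 to 6.07 and 6.2 FPKM with PM10 in normal hIECs and stood at 0.680 and 0.986 and 0.959 and 0.592 in inflamed hIECs, an interaction of -2.0 ± 0.18 (SE, limma adjusted p = 0.00183). TIMP3, an inhibitor of matrix proteases, rose from 16.7 and 15.4 to 30.4 and 29.9 FPKM in normal hIECs and stood at 51.8 and 50.8 and 52.7 and 52.5 in inflamed hIECs, an interaction of -0.83 ± 0.07 (SE, limma adjusted p = 0.00178). For TIMP3 the level that PM10 reached without cytokines stayed under the level that cytokines reached alone. Among 22 matrix proteases and inhibitors 5 were called higher and 5 lower.

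The markers of mesenchymal cells include matrix genes counted above, such as COL3A1, so they give no separate result. Of 14 such markers 2 were called higher and 6 lower, with a median interaction of -0.25, and their summed level was 5992 to 5997 FPKM in normal hIECs, 5473 to 5513 with PM10, 6423 to 6463 in inflamed hIECs and 5800 to 5859 with PM10. Members of this list ran in both directions, for example -0.60 for COL3A1, -0.59 for DCN and 0.47 for FN1. DCN and FN1 kept their calls in 15 and 16 of 20 alternatives, and both lost them without normal PM10 replicate 1 and without either inflamed library. Whether a change in the share of these cells has a part in the matrix results was not tested.

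Genes of the contractile apparatus leaned higher in the interaction, with 7 of 27 called higher and none lower. PM10 was called higher for 1 and lower for 6 of them in normal hIECs, and higher for 7 and lower for 1 in inflamed hIECs. ACTA2, smooth muscle actin (36.2% of its exon bases overlapped by another gene), went from 719 and 656 to 532 and 537 FPKM in normal hIECs and from 1011 and 1020.5 to 1042 and 1048 in inflamed hIECs, an interaction of 0.40 ± 0.07 (SE, limma adjusted p = 0.0259). ACTG2, enteric smooth muscle actin, went from 130.03 and 101 to 71.1 and 70.6 and from 39.2 and 40.04 to 40.8 and 41.2 FPKM, an interaction of 0.73 ± 0.15 (SE, limma adjusted p = 0.0319). CALD1, caldesmon, was instead raised in inflamed hIECs, from 174 and 174 to 258 and 253 FPKM against 113 and 101 and 104 and 99.9 in normal hIECs, an interaction of 0.62 ± 0.09 (SE, limma adjusted p = 0.00949). The interaction therefore came from a fall in normal hIECs for some genes and from a rise in inflamed hIECs for others, with CNN1 (0.48) and TAGLN (0.29, 47.8% of its exon bases overlapped) following ACTA2, and ACTN1 (0.53) following CALD1.

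MYL9, a myosin light chain, had 221 and 395 FPKM in the 2 normal libraries, and its interaction of 0.70 was not called (limma adjusted p = 0.235). Of 7 smooth muscle markers 6 were tested and 4 called higher, MYH11 was at 0 in all libraries, and their summed level was 1681 to 1837 FPKM in normal hIECs, 1368 to 1392 with PM10, 2490 to 2527 in inflamed hIECs and 2522 to 2545 with PM10. ACTA2, ACTG2, CNN1 and TAGLN, counted among the contractile genes above, are themselves on this marker list, so the markers give no separate result. The part of smooth muscle-like cells in this result was not tested. The list calls were fragile, since leaving out any 1 library other than the normal ones left 1 call of 7, and omitting the variance trend left 3. CALD1 held in all 20 alternatives, whereas ACTA2, ACTG2, CNN1, TAGLN and ACTN1 each lost their calls in those 6 fits.

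Mitotic genes were called lower with PM10 more often in normal than in inflamed hIECs. Of 32 genes PM10 was called lower for 26 in normal hIECs and for 6 in inflamed hIECs, with median PM10 effects of -0.46 and -0.16 (log2). The 26 became 11 without either normal PM10 library, 23 without normal replicate 1, 18 without normal replicate 2 and 21 without any 1 of the inflamed libraries, and group variance weights gave 20 against 9. The interaction was called higher for 9 and lower for none, with a median of 0.34 against -0.06 over all genes. UBE2C, which delivers ubiquitin for the exit from mitosis, went from 32.6 and 37.2 to 17.1 and 17.6 FPKM in normal hIECs and from 43 and 45.2 to 33.2 and 36.1 in inflamed hIECs, an interaction of 0.63 ± 0.11 (SE, limma adjusted p = 0.0193). AURKB, the kinase aurora B, went from 13.4 and 18.1 to 7.22 and 8.58 and from 24.3 and 24.6 to 23.5 and 22.2 FPKM, an interaction of 0.81 ± 0.19 (SE, limma adjusted p = 0.047).

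The mitotic calls depend on single libraries. Without normal PM10 replicate 1 or inflamed PM10 replicate 1 only 1 member was called, and without normal PM10 replicate 2, inflamed PM10 replicate 2 or either inflamed library 0. UBE2C lost its call without either normal PM10 library, either inflamed library or inflamed PM10 replicate 2. AURKB was not called under median centring or quantile normalization either (limma adjusted p up to 0.144 across the alternatives), while the count under median centring was 11. PRC1 and NUSAP1, the other members with large interactions (0.88 and 0.78), were not called (limma adjusted p = 0.085 and 0.0856), and 61.9% and 86.8% of their exon bases overlap other genes. Of 37 DNA replication genes PM10 was called lower for 10 in normal and 4 in inflamed hIECs, and the 10 became 5 with group variance weights and 7 without either normal library. The interaction was called for 1 of 37 (2.70%), near the 2.11% over all genes. This gene, TK1, stood at 0.54 (limma adjusted p = 0.0196). TK1 kept this call in 15 of 20 alternatives and lost it without either normal PM10 library, without either inflamed library and without inflamed PM10 replicate 1.

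**Figure D5:**
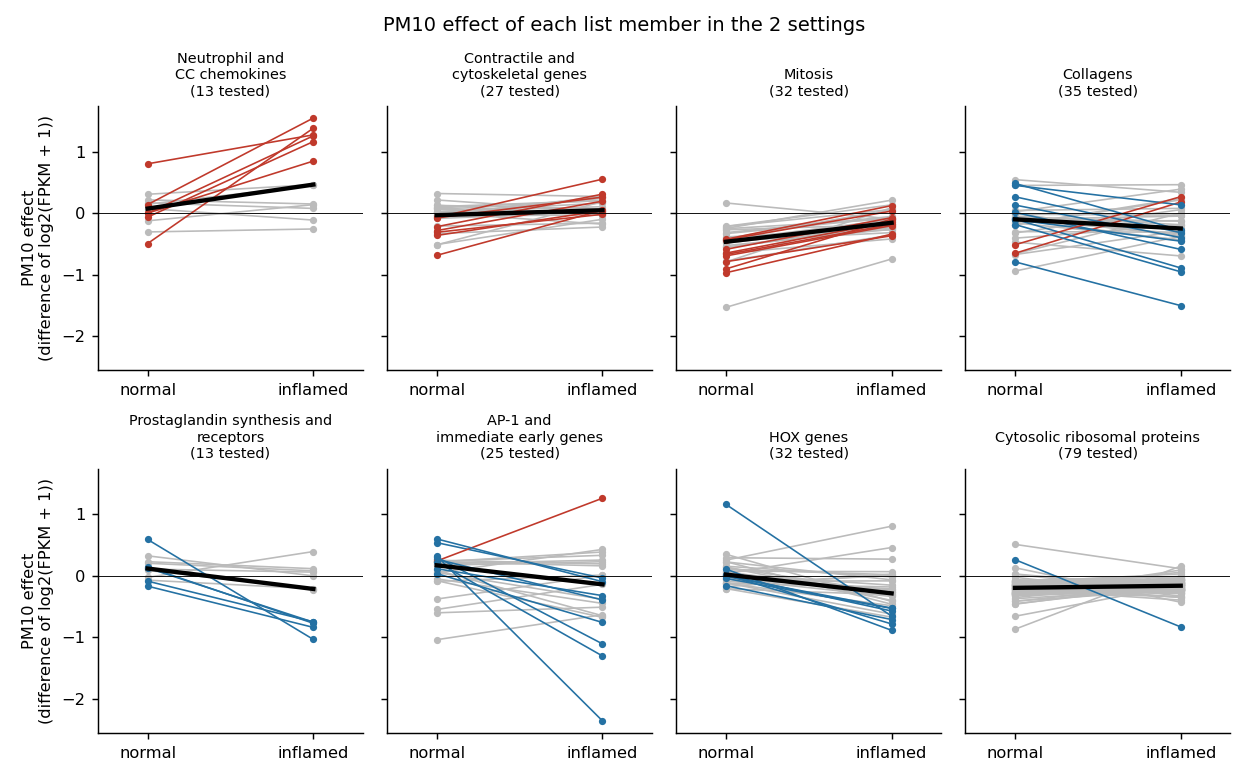
PM10 effect (y axis, difference of mean log2(FPKM + 1)) of each tested member of 8 gene lists in normal (left) and inflamed (right) hIECs. Red and blue lines are members called for a higher or lower interaction, grey lines are members not called, and the black line joins the medians. Mitotic genes start below 0 and return toward it, with medians of -0.46 and -0.16, whereas prostaglandin and HOX genes start near 0 and fall.

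HOX genes, which keep the positional identity of cells along the body axis, were called for PM10 mainly in inflamed hIECs. PM10 was called lower for 14 of 32 and higher for 2 in inflamed hIECs, against 0 and 1 in normal hIECs, and the interaction was called lower for 7 and higher for none. HOXD9 went from 12.9 and 14.2 to 13.8 and 13.5 FPKM in normal and from 5.12 and 5.14 to 2.7 and 2.44 in inflamed hIECs, an interaction of -0.79 ± 0.10 (SE, limma adjusted p = 0.00693). HOXD1 went from 15.6 and 15 to 17.2 and 16 and from 4.64 and 3.77 to 1.68 and 1.95 FPKM, an interaction of -0.99 ± 0.13 (SE, limma adjusted p = 0.00901). HOXC5 was at 0 in both normal libraries, at 1.26 and 1.22 FPKM with PM10, at 0.887 and 0.940 in inflamed hIECs and at 0.480 and 0 with PM10, an interaction of -1.81 ± 0.25 (SE, limma adjusted p = 0.00901).

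HOXA4 had an interaction of -0.77 that was not called (limma adjusted p = 0.124). HOX genes overlap each other and antisense transcripts (60.1% of the exon bases of HOXD1 and 67.3% of those of HOXC5, against 0% for HOXD9), and the libraries did not keep strand, so their reads cannot be told apart. HOXD9, HOXD1 and HOXC5 held in every alternative that tested them. The count was 3 to 9 across the alternatives, and 3 without normal PM10 replicate 1 and without inflamed replicate 2.

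Of 8 AhR targets tested the interaction was called lower for 1 (12.5%, against 4.48% of all genes) and higher for none. Their median interaction was -0.11 against -0.06 over all genes. PM10 was called higher for 4 of them in normal and for 2 in inflamed hIECs. CYP1B1, the P450 enzyme induced through AhR, was at 6.91 and 5.95 FPKM in normal hIECs, 65.7 and 62.8 with PM10, 37.6 and 35.7 in inflamed hIECs and 254 and 254 with PM10. PM10 raised it by 3.14 in normal and by 2.76 in inflamed hIECs (log2, limma adjusted p = 3.82e-06 and 9.78e-06). Its interaction of -0.38 ± 0.10 (SE, limma adjusted p = 0.0648) was not called, with 4 of 20 alternatives calling it. On the linear scale the rise was 159.7 FPKM larger in inflamed hIECs, so the sign of its departure from additivity depends on the scale.

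TIPARP, an ADP-ribosyltransferase that limits AhR, and AHR itself had interactions of 0.53 and 0.40 that were not called (limma adjusted p = 0.0858 and 0.142). NQO1, a quinone reductase that AhR and NRF2 share, rose with PM10 from 7.62 and 7.96 to 13.2 and 11.5 FPKM in normal hIECs and stood at 40.2 and 40.8 and 43.2 and 44.9 in inflamed hIECs. Its interaction of -0.48 ± 0.10 (SE, limma adjusted p = 0.0333) was lost under median centring and in 10 further alternatives, among them those without normal replicate 1, without normal PM10 replicate 1 and without each inflamed library. Of 8 AhR targets it was the 1 called.

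Several oxidative stress genes had lower interactions, with PM10 raising them in normal hIECs. SQSTM1, the autophagy receptor p62, went from 51.2 and 52 to 99.1 and 97.8 FPKM in normal and from 119 and 124 to 143 and 144 in inflamed hIECs, an interaction of -0.68 ± 0.06 (SE, limma adjusted p = 0.00178). HMOX1, heme oxygenase 1, went from 6.9 and 6.02 to 10.5 and 9.86 and from 4.94 and 4.75 to 5.17 and 4.75 FPKM, an interaction of -0.56 ± 0.11 (SE, limma adjusted p = 0.0323). FTL, the ferritin light chain, rose from 937 and 941 to 1197 and 1246 in normal and fell from 1542 and 1559 to 1335 and 1339.7 FPKM in inflamed hIECs, an interaction of -0.59 ± 0.06 (SE, limma adjusted p = 0.00287). For SQSTM1 and FTL the inflamed cells without PM10 already exceeded the normal cells with PM10.

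GPNMB, a glycoprotein of lysosomes, rose from 0.570 and 0.601 to 2.16 and 2.06 FPKM in normal hIECs and was at 0 in the 4 libraries with cytokines, an interaction of -0.97 ± 0.13 (SE, limma adjusted p = 0.00895). Over the lists, the interaction was called lower for 3 of 28 NRF2 and 4 of 33 lysosome genes and higher for none. The median interactions were -0.03 and 3.0e-05, against -0.06 over all genes. PM10 itself was called higher in both settings. This held for 8 NRF2 genes in normal and 5 in inflamed hIECs, and for 12 and 11 lysosome genes. SQSTM1 and FTL held in all 20 alternatives. GPNMB lost its call with a pseudocount of 0.1 (limma adjusted p = 0.0651), and HMOX1 lost its own without the low-value filter, without either normal PM10 library and without each inflamed library (up to 0.116).

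Of the 22 genes of the glycolysis list 3 were called higher and 1 lower, against 2.11% and 4.48% of all genes. SLC2A1 and SLC16A3, a glucose and a lactate transporter, were higher (0.76 and 0.94, limma adjusted p = 0.0102 and 0.00921), and SLC2A3, also a glucose transporter, was lower (-0.67, 0.0169). DDIT4, an inhibitor of mTOR complex 1, stood at 13.2 and 12.7 FPKM in normal hIECs and 13 and 13.4 with PM10, and fell from 21 and 19.2 to 12.7 and 12.6 in inflamed hIECs, an interaction of -0.66 ± 0.08 (SE, limma adjusted p = 0.00707). SLC2A1 lost its call without normal PM10 replicate 1, inflamed replicate 1 or inflamed PM10 replicate 1, and SLC2A3 without normal PM10 replicate 2, inflamed replicate 1 or either inflamed PM10 library.

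Housekeeping functions had few members called. PM10 was called lower for 26 of 79 cytosolic ribosomal protein genes in normal and for 24 in inflamed hIECs. These counts moved with the scaling and the normal library, to 3 and 13 after quantile normalization, and in normal hIECs to 45 without normal replicate 1, 19 without normal replicate 2 and 15 with group variance weights. As deposited the interaction was called for 1, although without normal replicate 1 it was called higher for 7 and lower for 2. That gene, RPL34, rose with PM10 from 524 and 515 to 634 and 614 FPKM in normal hIECs and fell from 387 and 399 to 219 and 223 in inflamed hIECs, an interaction of -1.09 ± 0.06 (SE, limma adjusted p = 0.000493) that held in all 20 alternatives. No mitochondrially encoded gene of 13 was called, but without normal replicate 1 there were 8 higher and 1 lower, and without normal replicate 2 all 13 were lower, so these genes follow the choice of the normal library.

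Of 75 calcium signaling genes 2 were called higher and 4 lower, and of 29 genes of protein digestion and amino acid or peptide transport 0 and 3, against the 2.11% and 4.48% over all genes. GAPDH, a common reference, was called with an interaction of 0.32 (limma adjusted p = 0.0238) that was lost under quantile normalization, without the variance trend and without any 1 of the 6 libraries other than the normal ones, while ACTB stood at -0.02 (0.856).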

How the data were processed

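Poly-A RNA was sequenced from libraries that do not keep strand, as paired reads of 100 bases on an Illumina instrument. Per the paper's methods, adapters were removed with Cutadapt 3.7 and low-quality ends with Sickle, reads were mapped to GRCh38 with HISAT2 2.2.1, and StringTie 2.2.0 estimated gene levels. The submitters' processing notes name cutadapt, HISAT2, StringTie and hg38. The authors deposited 1 table of FPKM per library, normalized for gene length and library total. No counts were used here, so no count test was run and depth is unknown.

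Values were compared as log2(FPKM + 1), the transformation the authors used, so fold changes of low genes are understated. The limma package (3.58.1, in R 4.3.3) estimated 1 mean per group from all 8 libraries together, letting the prior variance follow mean expression, and p-values were adjusted over the 14206 tested genes by the Benjamini-Hochberg method within each comparison. The fit was tested on simulated data in which each gene had the same spread in every group. The wider spread of the normal libraries was therefore not covered by it. Groups came from the labels. Gene positions and exon overlaps came from GENCODE 44 (same build), promoters from RefSeq.

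Named genes were up to 10 per direction with the largest called interaction, protein-coding, with a mean of at least 1 FPKM and 1 sign in all 16 ways of taking 1 library per group, passing over genes with more than 25% of exon bases shared with another gene. To these came up to 4 genes per list by size of interaction, called or not, and GAPDH and ACTB. Some genes that meet the rule are not reported here. The lists and genes were chosen with earlier results of these data known. The 20 alternatives were other scalings, pseudocounts, filters, variance models, a replicate block, and each library left out.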

Additional observations from a re-analysis of the deposited data

Results flagged for a closer look

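By limma's test of the interaction, 937 genes responded to PM10 differently with and without cytokines. Among the genes named above, the PM10 effects were themselves called in both settings in opposite directions for the following, given as interactions on the log2 scale. Higher in inflamed hIECs were CXCL1 (1.87), AP002956.1, the MCAM gene (1.78), ANKRD1 (1.63), TNFRSF11B (1.59), NT5E (1.59), AMIGO2 (1.57), ITGA1 (1.54), INHBA (1.52), IL11 (1.33), HBEGF (1.14), IL7R (1.13), SLC16A3 (0.94) and COL4A2 (0.78). Lower were HOXC5 (-1.81), PTGER3 (-1.62), RPL34 (-1.09) and FTL (-0.59). The PM10 calls of CXCL1 in normal hIECs and of HOXC5 in both settings rest on low values, as given above. The PM10 calls in normal hIECs also rest on the spread pooled over all groups. With only the 4 libraries without cytokines there were 23 such calls against 1311, and ANKRD1, NT5E and ITGA1 were not among them. With 2 libraries per group no test of an outlying value within a group was made, and no further data lay outside the comparisons.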

How the results depend on the processing

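Of the genes named here, 76 were called, and their calls under the alternatives were kept 1313 times and lost 195 times, always with the direction kept. Median centring kept 73 of the 76, quantile normalization 70, an equal nuclear FPKM sum 76, group variance weights 76, and no low-value filter 67. A minimum mean of 5 FPKM left 64 of them to test, and all 64 kept their calls. Leaving out any 1 library of the treated groups kept 49 to 53, and leaving out normal replicate 1 or 2 kept 73 or 74. The equal nuclear sum and the group weights were chosen after seeing the data, as were, for gene lists and for the classes by setting, the alternatives other than median centring and quantile normalization. The sign turned for 2 genes that were not called, CXCL10 without normal replicate 1 (-0.027, limma adjusted p = 0.844, and up to 0.24 without normal replicate 2) and ACTB with median centring (0.022, 0.9) and quantile normalization (0.11, 0.738).

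Higher calls numbered 453 under median centring against 300, and their share of all calls was 45.7% there, 46.6% with quantile normalization, 28.9% with an equal nuclear sum and 28.4% with a pseudocount of 0.1, against 32.0%. PM10 calls in normal hIECs (1311) became 2032 with an equal nuclear sum, 604 with group weights and 23 with only the 4 libraries without cytokines (3169 at an unadjusted p under 0.05), and those in inflamed hIECs (2165) became 3472 with group weights and 2108 with only the 4 libraries with cytokines. Leaving out 1 library, the lone library of a group being taken to vary like the others, gave 263 to 1266 interaction calls, 90 to 446 higher and 159 to 897 lower, a share of higher calls of 29.1% to 43.5%, 194 to 2627 PM10 calls without cytokines, 675 to 2992 with them and 154 to 632 genes called with cytokines alone. The cause of these changes was not tested.

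Replicate numbers did not pair the libraries, since the deviations of same-numbered libraries correlated at -0.002 to 0.079. With the replicate number as a block there were 762 interaction calls (244 higher, 518 lower), 1051 PM10 calls without cytokines and 1966 with them, and 72 of the 76 named genes kept their calls. With 2 libraries per group and no read counts, low genes cannot be given a counting error, and values near 0.2 FPKM cannot be told from 0.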

Other observations

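Some genes with a large interaction belonged to none of the groups described. PMEL, a pigment cell protein, stood at 16.5 and 14.2 FPKM in normal hIECs, 39.7 and 42.2 with PM10, 3.58 and 4.21 in inflamed hIECs and 3.08 and 3.97 with PM10, an interaction of -1.48 ± 0.17 (SE, limma adjusted p = 0.00427). BEST1, a chloride channel gene, was at 8.3 and 12, 11.3 and 7.62, 22.8 and 15.4 and 3.2 and 1.26 FPKM in the same order, an interaction of -2.59 ± 0.47 (SE, limma adjusted p = 0.0247), with a wide spread between replicates and 14.6% of its exon bases shared with FTH1. It lost its call without normal replicate 1, without either normal PM10 library, without either inflamed library and without inflamed PM10 replicate 2. The MHC class II gene HLA-DRA, which IFNγ induces, fell with PM10 from 17.9 and 19.1 to 10.7 and 10.1 FPKM in inflamed hIECs, an interaction of -0.99 ± 0.14 (SE, limma adjusted p = 0.0111), kept in 16 of 20 alternatives and lost with a pseudocount of 0.1 and without normal PM10 replicate 2, inflamed replicate 2 or inflamed PM10 replicate 2.

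WARS, the tryptophanyl-tRNA synthetase that IFNγ induces, rose with PM10 from 74.3 and 77.8 to 118 and 118 FPKM in normal hIECs and stood at 536 and 543 and 574 and 554 in inflamed hIECs, an interaction of -0.56 ± 0.06 (SE, limma adjusted p = 0.00425). Potassium channel genes were called higher for 4 of 22 and lower for none. KCNE4, a regulatory subunit, rose from 6.06 and 5.27 to 9.92 and 10.7 and from 6.06 and 6.51 to 18.2 and 18.1 FPKM, an interaction of 0.63 ± 0.11 (SE, limma adjusted p = 0.0197), and KCNMA1, the large-conductance channel, had an interaction of 1.01 (limma adjusted p = 0.0161). CDKN2B, an inhibitor of cyclin-dependent kinases, rose in both settings, with an interaction of 0.74 (0.0149), and TRIB3, a stress-induced pseudokinase, had -0.68 (0.0303). KCNE4 and KCNMA1 lost their calls without any 1 of the 6 libraries other than the normal ones, TRIB3 in these fits and under median centring and quantile normalization, and CDKN2B in these fits except that without inflamed replicate 2. WARS and PMEL held in all 20 alternatives.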
